A study of Mus musculus with 48 samples.

Results

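The 10 genes described here belong to the circadian clock: Arntl, Per1, Per2, Per3, Cry1, Ciart, Nr1d1, Nr1d2, Dbp and Tef. They were taken by gene symbol from a table of 32544 gene rows, and all 10 were found there and passed the filter on low counts in each fit. Messenger RNA was sequenced from the tibial metaphysis, the flared end of the shin bone, in males that were 19 weeks old. The mice came from 8 inbred strains with no induced mutation named in the labels: the classical laboratory strains C57BL/6J, A/J and 129S1/SvImJ, the obese NZO/HlLtJ, the diabetes-prone NOD/ShiLtJ, and the wild-derived WSB/EiJ, PWK/PhJ and CAST/EiJ. A cast held the left hindlimb of each mouse for 3 weeks (immobilized limb) while its free right hindlimb gave the control sample (control limb), so that side and cast cannot be told apart. Each strain gave 3 mice and 6 libraries, 48 in all. The A/J control libraries of mice 2 and 5 were near empty (2335 and 50 counts) and were left out, which left 46 libraries and 22 mice with both limbs, among them 1 A/J mouse. The labels give no time of day for tissue collection, so a difference between strains and a difference in collection time cannot be told apart for these genes.

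The clock is a feedback loop of transcription that runs in nearly every cell. BMAL1, the protein of Arntl, pairs with CLOCK and switches on genes that carry E-boxes, among them the Per and Cry genes, Ciart, Nr1d1, Nr1d2, Dbp and Tef. PER, CRY and CIART proteins then hold BMAL1 and CLOCK back. REV-ERBα and REV-ERBβ, from Nr1d1 and Nr1d2, repress Arntl through ROR elements, and DBP and TEF drive a further set of genes through D-boxes. In a tissue with a running clock, Arntl messenger RNA is therefore high when Dbp and Nr1d1 are low, and Per2 and Cry1 follow Dbp with a delay. Bone cells, marrow cells and muscle all carry this clock.

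The start sites of these genes hold the clock's own elements unevenly. In 3 stretches lay the most copies of a motif among the members or their only match to a searched ROR or REV-ERB core. Promoters of all but Per2, 9 of the 10 genes, were matched in RefSeq (GRCm38.p6), 12 windows in all, each from 250 bases before to 50 bases after a start site. Motifs were searched on both strands and are printed in capitals. They were the E-box CACGTG, its variant CACGTT, the D-boxes TTATGTAA and TTACGTAA, and the ROR and REV-ERB cores TAGGTCA and TGGGTCA. The first sequence is the 250 bases before the Ciart start site (chr3:95882229-95882478, minus strand), the second the 250 bases before the Per3 start site (chr4:151044666-151044915, minus strand), and the third 30 bases around a core that begins 31 bases into an Arntl transcript (chr7:113207530-113207559, plus strand).
Ciart: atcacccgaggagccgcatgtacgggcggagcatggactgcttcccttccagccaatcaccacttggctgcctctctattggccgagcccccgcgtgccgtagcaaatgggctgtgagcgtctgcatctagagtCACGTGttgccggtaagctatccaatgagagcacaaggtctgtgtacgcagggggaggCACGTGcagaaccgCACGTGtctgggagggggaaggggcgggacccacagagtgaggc
Per3: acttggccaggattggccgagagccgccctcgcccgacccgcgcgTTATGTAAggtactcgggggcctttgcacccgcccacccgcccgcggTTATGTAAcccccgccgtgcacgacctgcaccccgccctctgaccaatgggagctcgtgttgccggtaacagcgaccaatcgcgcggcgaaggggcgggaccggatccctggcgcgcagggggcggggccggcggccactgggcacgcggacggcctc
Arntl: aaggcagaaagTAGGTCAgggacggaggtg
Ciart held 3 E-boxes, a number reached or passed by 0.0883% of the 32851 promoters of the same length. Per3 held 2 D-boxes TTATGTAA, against 0.0244% of all promoters with 2 or more and 1.06% with any. The Arntl core TAGGTCA is of a kind present in 6.45% of promoters. An E-box CACGTG also lay in windows of Per1, Cry1 and Tef and in 7.15% of all promoters, and the variant CACGTT lay in Cry1 and Nr1d1 and in 4.68% of all. These matches describe the letters in the windows and no binding was measured. The windows of Dbp and Nr1d2 held none of the searched motifs, nor did another window of Per1 and another of Arntl. Letters that differ from the motifs listed, such as taggtta in both Arntl windows, were not searched.

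In GENCODE M21 (GRCm38) the activator gene Arntl lies at chr7:113207465-113314126 on the plus strand. The Per genes lie at chr11:69095217-69109960 (Per1, plus), chr1:91415982-91459324 (Per2, minus) and chr4:151003652-151044665 (Per3, minus). Cry1 is at chr10:85131700-85185064 (minus) and Ciart at chr3:95878503-95882251 (minus). The REV-ERB genes are at chr11:98767932-98775333 (Nr1d1, minus) and chr14:18204054-18239127 (Nr1d2, minus), and the output genes at chr7:45705088-45710203 (Dbp, plus) and chr15:81802421-81826863 (Tef, plus). Counts are of reads over each whole gene, so no part of a gene was read on its own.

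Total counts ran from 5253408 to 14744056 in the 46 libraries. Levels are given as CPM, reads of a gene scaled to a common library total, with library sizes scaled by TMM. Ciart was the most thinly counted member, with 1 to 110 counts per library, and Arntl had 26 to 125. Dbp had 48 to 1033 counts and Tef 202 to 2119. All 6 osteoblast markers were present in every library, with Col1a1, the main collagen of bone, at 1590 to 114000 CPM. So were markers of other cells: the neutrophil gene S100a9 ranged from 1300 to 36400 CPM and the muscle gene Ckm from 5.54 to 5790 CPM. In bulk tissue such as this, fewer cells of a type and less RNA per cell cannot be told apart. Counting strand is not given in the sources used here, and 539 of the 2993 exon bases of Dbp (18%) overlap Sphk2 on the other strand. Likewise 263 of the 3077 exon bases of Nr1d1 (8.55%) overlap Thra, so reads from these stretches cannot be assigned with certainty. Nothing in the labels says whether mice of a strain shared a cage or a day. P-values of the fits by strain thus rest on the spread between these mice alone. Those of the paired fit rest on the spread left between limbs after mouse and limb terms. Those of the correlations rest on permutations of these mice.

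Levels of the clock genes differed among strains. In control limbs, all 10 members differed among the 8 strains (edgeR quasi-likelihood F test, FDR of 0.05 over all genes), where 40.6% of the 16493 genes tested did. The calls of Cry1 (FDR 0.0366) and Nr1d2 (FDR 0.0343) were each lost in 11 of the 22 fits that left out 1 mouse, with an FDR of up to 0.0784 and 0.0737, both without CAST/EiJ mouse 4. The other 8 passed in every such fit. In immobilized limbs 7 of 10 did, where 50.3% of genes did. The other 3 were Per2 (FDR 0.095), Cry1 (0.0776) and Nr1d1 (0.0633). Both limbs come from the same mice, so the second test is no independent sample.

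Arntl, the activator of the loop, had the smallest FDR of the members in control limbs (0.000546). WSB/EiJ control limbs were at 15.1, 11.4 and 18.4 CPM, and NOD/ShiLtJ control limbs at 13.3, 11.1 and 8.01. The CAST/EiJ control limbs were at 3.59, 4.86 and 2.53 CPM and those of NZO/HlLtJ at 5.56, 4.25 and 3.33. WSB/EiJ thus lay above every control library of the strains other than NOD/ShiLtJ, and NOD/ShiLtJ did so too. Between them and CAST/EiJ at the bottom came C57BL/6J (6.42 CPM on average), PWK/PhJ (5.98), the single A/J library (5.56), 129S1/SvImJ (5.13) and NZO/HlLtJ (4.38), each overlapping its neighbour in the order. Against the mean of the other 7 strains, WSB/EiJ was higher by 1.38 ± 0.21 on the log2 scale (SE, n = 3, FDR 0.000362) and NOD/ShiLtJ by 0.88 ± 0.22 (FDR 0.0118). CAST/EiJ was at -0.92 ± 0.25 (FDR 0.014). In these contrasts 6.54%, 10.8% and 22.7% of all genes were called, respectively. In immobilized limbs WSB/EiJ had the highest mean, at 13.7, 10.3 and 14.1 CPM, but overlapped PWK/PhJ, at 12.6, 9.57 and 4.49, and A/J, at 6.26, 10.8 and 4.05, while NOD/ShiLtJ, at 7.18, 8.62 and 6.87, no longer stood apart from C57BL/6J, at 6.14, 8.35 and 7.44. The test among strains in immobilized limbs (FDR 0.0357) was lost for Arntl in 7 of 24 fits with 1 mouse left out: C57BL/6J mouse 6 (FDR 0.0574), NOD/ShiLtJ mouse 6 (0.0555), NZO/HlLtJ mouse 4, 5 or 6 (0.0502, 0.0758 and 0.0738) and WSB/EiJ mouse 2 or 5 (0.109 and 0.108). The WSB/EiJ call in control limbs held with each mouse left out in turn (FDR 0.000225 to 0.00838). The NOD/ShiLtJ call was lost without NOD/ShiLtJ mouse 4 (0.68, FDR 0.201) or mouse 5 (0.85, FDR 0.056), and the CAST/EiJ call without CAST/EiJ mouse 2 (-0.91, FDR 0.0658) or mouse 4 (-0.71, FDR 0.124).

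**Figure D1:**
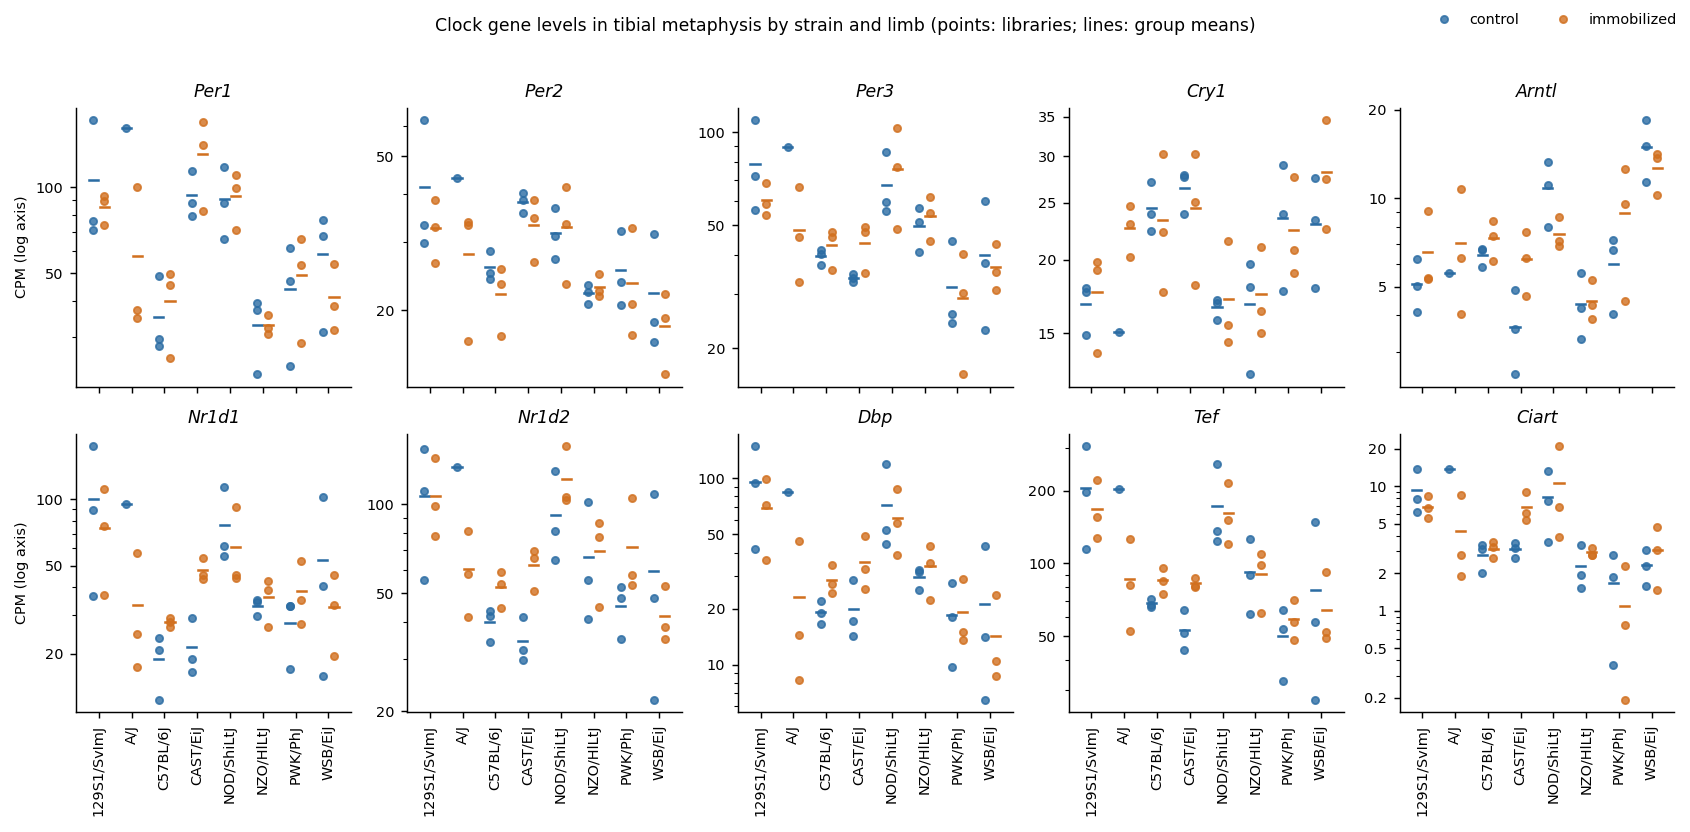
CPM of each clock gene (log axis, own scale per gene) in 46 libraries by strain and limb, with a line at each group mean. Arntl was at 11.4 to 18.4 CPM in WSB/EiJ control limbs and at 2.53 to 4.86 in CAST/EiJ control limbs, whereas Dbp was at 41.9 to 149 CPM in 129S1/SvImJ control limbs and at 6.48 to 43.1 in WSB/EiJ.

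Dbp and Tef, the output factors, and Nr1d1 followed another order. Dbp was at 95.1, 149 and 41.9 CPM in 129S1/SvImJ control limbs, at 85 in the A/J control library and at 120, 44.5 and 52.6 in NOD/ShiLtJ. The other 5 strains were at 6.48 to 43.1 CPM, so that only the lowest 129S1/SvImJ value fell within their range. C57BL/6J had 21.9, 19 and 16.5 CPM, and WSB/EiJ had 6.48, 14.1 and 43.1, a spread within 1 strain of more than the C57BL/6J mice covered. Against the mean of the other strains 129S1/SvImJ was higher for 5 members, where 6.49% of all genes were called: Dbp by 1.63 ± 0.39 (SE, n = 3, FDR 0.0175), Ciart by 1.36 ± 0.36 (FDR 0.0329), Nr1d1 by 1.35 ± 0.38 (FDR 0.045), Tef by 1.21 ± 0.33 (FDR 0.0385) and Per3 by 0.76 ± 0.22 (FDR 0.0481). These 5 calls lean on mouse 3, whose control limb had the highest Dbp of all libraries at 149 CPM. Without it the differences were 1.17 for Dbp (FDR 0.309), 0.98 for Ciart (0.409), 0.70 for Nr1d1 (0.627), 0.82 for Tef (0.459) and 0.47 for Per3 (0.536). Without mouse 2 of that strain the FDR was 0.0777 to 0.124, and the calls of Nr1d1, Tef and Per3 were lost in 15, 11 and 14 of the 22 fits that left out 1 mouse. Dbp and Ciart were lost in those 2 fits only. Nr1d1 was at 89.1, 174 and 36.6 CPM in 129S1/SvImJ control limbs, from near the median of the 46 libraries (35.8) to their highest value. Nr1d2, the second REV-ERB gene, passed the test among strains in 11 of the 22 fits with 1 mouse left out and was called in none of the 8 contrasts of a strain with the rest. No member was called in A/J, C57BL/6J or NZO/HlLtJ against the rest, where 1.69%, 8.83% and 4.61% of genes were.

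Muscle markers were high in the same strains. The mean log2 CPM of 10 skeletal muscle markers, all 10 measured, was 8.51 to 10.23 in 129S1/SvImJ control limbs, 9.76 in the A/J control library and 9.42 to 11.45 in NOD/ShiLtJ, against 1.61 to 8.43 in the control limbs of the other 5 strains. Myh2 and Myh7 had no count in at least 1 library. With this mean as a covariate, 2 of 10 members differed among strains in control limbs, Arntl (FDR 0.000871) and Per1 (FDR 0.0333), where 25.5% of all genes did. The FDR of Dbp became 0.4 and that of Nr1d1 0.18. In immobilized limbs 2 of 10 passed, Per1 (0.00228) and Tef (0.0387), where 40.6% of genes did. Of the 11 calls of a strain against the rest, the 2 that passed with the covariate were both Arntl, in WSB/EiJ (1.57, FDR 0.00489) and CAST/EiJ (-0.87, FDR 0.0305). Since the muscle mean itself differed between strains, fits with this covariate cannot tell muscle signal from strain. The part of muscle in the strain differences was not tested.

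Among the repressors of the loop, Per1 had a mean of 106 ± 56.2 CPM (SD, n = 3) in 129S1/SvImJ control limbs and 33 ± 9.36 in NZO/HlLtJ. Its 3 CAST/EiJ control values, 88.4, 114 and 79.5 CPM, lay above all 3 of C57BL/6J, at 29.4, 27.8 and 48.8, and all 3 of NZO/HlLtJ, at 39.5, 22.3 and 37.2. The same held in immobilized limbs, where CAST/EiJ was at 82.4, 140 and 169 CPM and NZO/HlLtJ at 35.8, 30.7 and 32.3. Per2 and Cry1 had the narrowest ranges of the members, with a highest value 4.52 and 2.7 times the lowest over the 46 libraries. Cry1 was called higher in CAST/EiJ than in the other strains (0.46 ± 0.15, SE, n = 3, FDR 0.0359), at 27.9, 23.9 and 27.7 CPM, a range that overlapped C57BL/6J, PWK/PhJ and WSB/EiJ. That call was lost without A/J mouse 1 (0.41, FDR 0.0565) and without CAST/EiJ mouse 2, 3 or 4 (0.43, 0.53 and 0.43, FDR 0.146, 0.0592 and 0.157). Per3 and Ciart were lower in PWK/PhJ, where 16.7% of genes were called, by -0.80 ± 0.25 (FDR 0.0374) and -1.53 ± 0.47 (FDR 0.0347). Ciart was at 1.86, 0.367 and 2.79 CPM in PWK/PhJ control limbs, the second value resting on 3 counts. The Ciart call was lost without A/J mouse 1 (-1.26, FDR 0.0793), PWK/PhJ mouse 3 (-1.61, FDR 0.104) or PWK/PhJ mouse 4 (-1.04, FDR 0.177). The Per3 call was lost without the same 3 mice (-0.67, -0.63 and -0.68, FDR 0.0804, 0.205 and 0.183) and without C57BL/6J mouse 4 (-0.79, FDR 0.052).

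A ratio of Dbp to Arntl, genes of opposite clock phase, gives a reading per library in which library scaling largely cancels. It was taken from log2 CPM with a prior count of 2, which shrinks it slightly at low counts. Its log2 was 2.70 to 4.82 in 129S1/SvImJ control limbs, 1.46 to 1.67 in C57BL/6J and -1.19 to 1.22 in WSB/EiJ, so these 3 strains did not overlap. The other strains filled the gaps: PWK/PhJ, at 0.41 to 2.69, overlapped both WSB/EiJ and C57BL/6J, and NOD/ShiLtJ (1.98 to 3.15) and NZO/HlLtJ (2.48 to 3.15) overlapped 129S1/SvImJ. In immobilized limbs the same strains were at 2.71 to 4.15, 1.83 to 2.01 and -0.66 to 0.73. The 2 limbs of a mouse differed in this ratio by a median of 0.52 (22 mice, 0.0089 to 2.70), limbs of different mice of a strain by 0.50 (42 pairs), and limbs of mice of different strains by 1.30 (420 pairs). The median for limbs of 1 mouse was thus no lower than that for strain mates. Over all 10 members, the root mean square log2 difference had a median of 0.48 between the limbs of a mouse, 0.61 between strain mates and 0.94 between strains. The same order stood over all genes tested, at 0.74, 0.79 and 1.23. These pairs share libraries and are given as a description with no test.

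**Figure D2:**
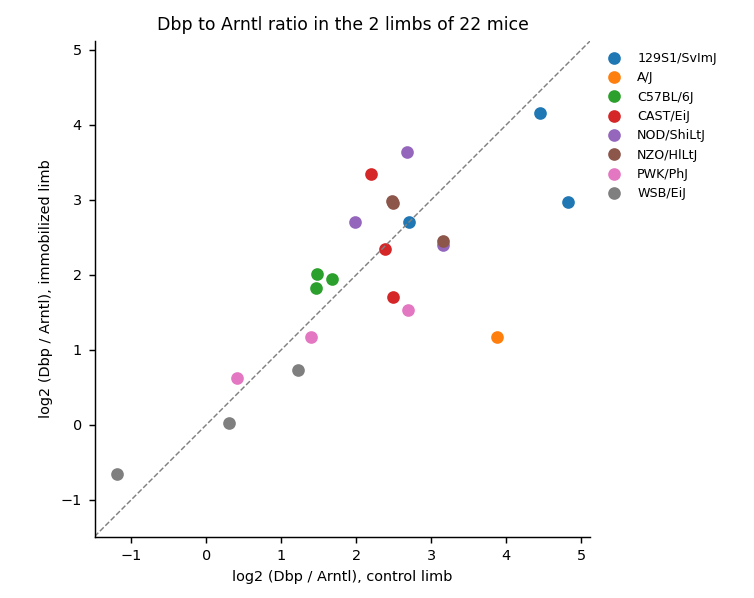
Log2 ratio of Dbp to Arntl in the control limb (x axis) and the immobilized limb (y axis) of 22 mice, 1 point per mouse, with the line of equality. WSB/EiJ lay between -1.19 and 1.22 and 129S1/SvImJ between 2.70 and 4.82 in control limbs, and the A/J mouse fell farthest from the line, at 3.88 and 1.17.

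No clock gene was called for casting on average. In the paired edgeR test of the mean limb effect over the 8 strains 0 of 10 members passed, where 1255 of 16882 genes (7.43%) did. At an unadjusted p under 0.05 there were 2 of 10, Per1 and Per2, where 23.2% of genes were, and DESeq2 called 1, Per2 (-0.32, adjusted p 0.0354). Dbp was higher in the immobilized limb in 13 of 22 mice, with a median difference of 0.26 on the log2 scale and a range from -2.54 to 1.50. Arntl was likewise higher in 13 of 22 (median 0.15, -0.87 to 1.23), Nr1d2 in 15 of 22 (median 0.41) and Per2 in 9 of 22 (median -0.05). Differences of both signs occurred for every member. Fitted as the mean of strain effects, which gives the single A/J pair the weight of 3 pairs elsewhere, Per2 was at -0.30 ± 0.10 (SE, 22 mice, FDR 0.0631), Per1 at -0.25 ± 0.11 (FDR 0.196), Dbp at -0.22 ± 0.17 (FDR 0.483) and Arntl at 0.16 ± 0.09 (FDR 0.315). The median over the 10 members was -0.14, against 0.0095 over all genes. Per2 passed without 129S1/SvImJ mouse 6 (-0.35, FDR 0.0369), NZO/HlLtJ mouse 4 (-0.32, FDR 0.0448) or PWK/PhJ mouse 6 (-0.33, FDR 0.0466). Without A/J mouse 1, the estimates of Per1, Per3, Nr1d1, Dbp, Tef and Ciart changed sign, to 0.04, 0.03, 0.19, 0.11, 0.13 and 0.19, that of Per2 was -0.15 (FDR 0.289), and that of Nr1d2 went from 0.07 to 0.32 (FDR 0.0711). The muscle marker mean was lower in the immobilized limb in 15 of 22 mice (median -1.91) and the osteoblast marker mean higher in 20 of 22 (median 1.05). With the muscle covariate Nr1d1, Dbp, Tef and Ciart were at 0.22, 0.24, 0.19 and 0.26, and Cry1 went from 0.11 to -0.03.

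**Figure D3:**
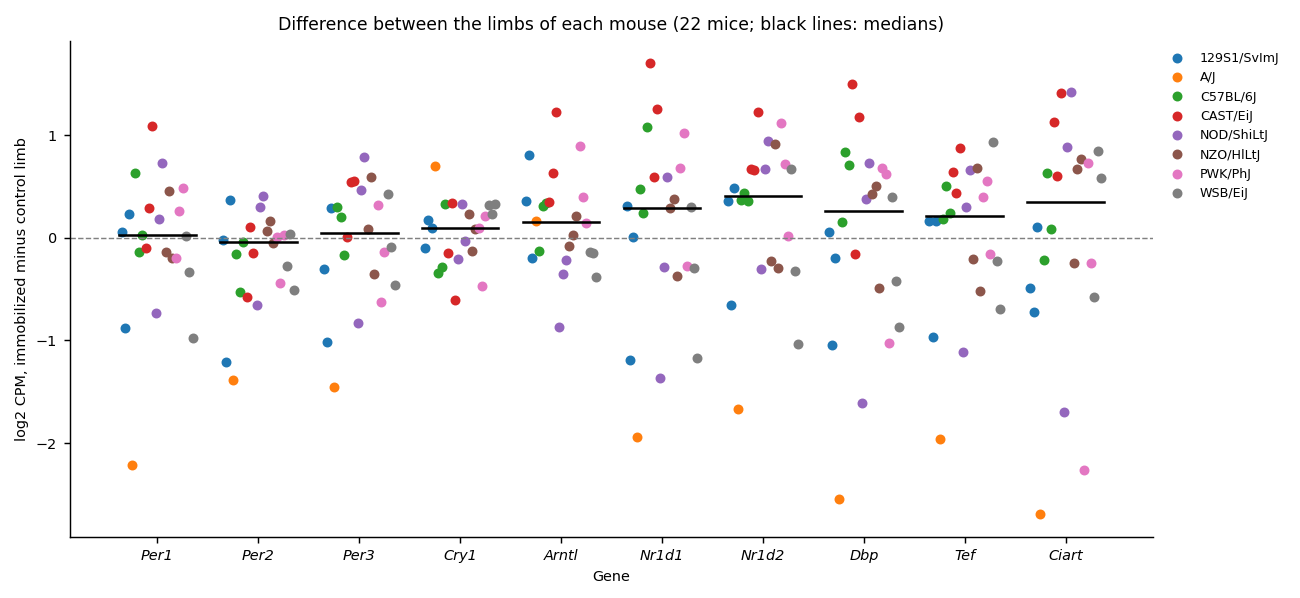
Log2 CPM of the immobilized minus the control limb for each clock gene in 22 mice, 1 point per mouse coloured by strain, with the median as a black line. Medians ran from -0.05 (Per2) to 0.41 (Nr1d2), and the A/J mouse was the lowest point for 8 of the 10 genes, at -2.54 for Dbp.

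Within strains, 3 of 80 tests of a member passed. In CAST/EiJ, where 13.9% of all genes were called, Arntl rose from 3.59, 4.86 and 2.53 CPM in control limbs to 4.64, 7.68 and 6.27 in the immobilized limbs of mice 2, 3 and 4, a log2 difference of 0.78 ± 0.24 (SE, 3 mice, FDR 0.0375). Nr1d1 rose there from 16.6, 29 and 19 to 54.3, 43.8 and 45.4 CPM, by 1.18 ± 0.37 (FDR 0.0418), with no overlap between limbs. The activator and its repressor were thus both higher in the immobilized limb of all 3 mice. Ciart, at 2.66, 3.49 and 3.2 CPM in CAST/EiJ control limbs, had 6.14, 5.4 and 8.95 in immobilized limbs, and its difference of 1.11 ± 0.51 did not pass (FDR 0.157). Dbp was higher in 2 of the 3 mice (0.85 ± 0.43, FDR 0.202). The Arntl call was lost without CAST/EiJ mouse 2 (0.97, FDR 0.0533), 3 (0.84, FDR 0.106) or 4 (0.52, FDR 0.287). The Nr1d1 call was lost without the same mice (0.92, 1.48 and 1.14, FDR 0.244, 0.0634 and 0.167) and without C57BL/6J mouse 1 (1.18, FDR 0.0519), NOD/ShiLtJ mouse 5 (1.17, FDR 0.0504) or WSB/EiJ mouse 4 (1.18, FDR 0.0527). Neither passed without the mouse as a block (FDR 0.127 and 0.147) or without the filter on low counts (0.0776 and 0.0723), and Nr1d1 did not with the neutrophil covariate (FDR 0.0738). Marker means also differed between CAST/EiJ control and immobilized limbs without overlap. Osteoblast markers (6) were at 8.67 to 9.32 and 11.39 to 12.24 on the log2 scale, adipocyte markers (3) at up to 5.29 and at 6.28 to 7.53, osteocyte markers (4) at 6.70 to 7.18 and 7.48 to 8.49, and B cell markers (6) at 5.60 to 6.28 and 4.61 to 4.88. The part of these cells in the Arntl and Nr1d1 differences was not tested. No member was called in the other 6 strains, where 0% (129S1/SvImJ), 0.00592% (C57BL/6J, NZO/HlLtJ and WSB/EiJ), 0.0889% (PWK/PhJ) and 8.33% (NOD/ShiLtJ) of genes were.

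The third call was Per1 in A/J, where 3.99% of genes were called and a single pair of limbs stands for the strain. Per1 was at 161 CPM in the control limb of A/J mouse 1 and at 34.8 in its immobilized limb (-2.21 ± 0.51, SE from the spread of the other strains, FDR 0.0299). Of the other members, 7 differed in the same direction without passing. Among them Dbp was at 85 and 14.4 CPM, Nr1d1 at 95.7 and 24.7, Tef at 204 and 52.5, and Ciart at 13.7 and 1.91. Cry1 went the other way, at 15.1 and 24.7 CPM, the highest limb difference of Cry1 among the 22 mice (0.70), and Arntl was at 5.56 and 6.26 CPM. The immobilized limbs of A/J mice 2 and 5, whose control libraries were near empty, had Dbp at 8.24 and 46.2 CPM. In mouse 1 the muscle marker mean was 9.76 in the control and 4.39 in the immobilized limb, and the neutrophil marker mean was 10.95 and 13.41. With the muscle covariate the Per1 difference was -1.84 (FDR 0.159), with the neutrophil covariate -1.56 (FDR 0.223), with all 48 libraries -1.76 (FDR 0.05), and with no mouse block -2.21 (FDR 0.0919).

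The limb effects of the 8 strains were not shown to differ for any member. In the F test of their 7 differences 0 of 10 members passed, where 2.5% of genes did. The lowest unadjusted p was that of Nr1d1 (0.0124, FDR 0.14), and 4 of 10 members were under 0.05, as were 20.6% of genes. DESeq2 called 2, Nr1d1 (adjusted p 0.0105) and Per1 (0.0237).

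Differences between mice of 1 strain that both limbs share were tested next. The F test of mouse terms within strains called 0 of 10 members and 0.0118% of all genes, with 4 members (Nr1d1, Per1, Arntl and Nr1d2) at an unadjusted p under 0.05, as were 17.9% of genes. DESeq2, which called 14.2% of genes, called 5 members: Nr1d1, Per1, Nr1d2, Dbp and Tef. Agreement of the limbs was also measured as a correlation over 21 mice with strain means removed. Arntl had the highest value (Pearson r = 0.56, permutation p = 0.0481, FDR 0.485, Spearman rho = 0.54, p = 0.0449), and r was 0.49 without the 2 mice farthest from the median. Nr1d1, Per1, Cry1, Nr1d2, Tef and Dbp followed at 0.48, 0.44, 0.43, 0.41, 0.38 and 0.32, and Ciart, Per2 and Per3 were at 0.09, 0.08 and 0.08. The median over all genes was 0.21, and 0% of genes passed in this test (10.3% had an unadjusted p under 0.05). The values of Dbp and Tef rest on WSB/EiJ mice 2 and 5, without which r was 0.01 and 0.10. With the strain means kept, 8 of 10 members passed, where 33.4% of genes did, with Arntl at 0.74 and Per1 at 0.64. That reading included the A/J mouse (22 mice) and permuted mice across strains. It therefore takes in the differences among strains and does not measure agreement within strains.

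Across mice 7 of the 10 members formed 2 groups with high correlations, and Arntl, Cry1 and Per1 lay outside both. On the mean of the limbs with strain means removed, Dbp correlated with Tef at r = 0.96 (permutation p = 0.00037, FDR 0.00759, rho = 0.93, p = 0.00068), with Nr1d1 at 0.95 (p = 6e-05, FDR 0.0049, rho = 0.88, p = 0.00021) and with Nr1d2 at 0.90 (p = 0.00056, FDR 0.00915, rho = 0.85, p = 0.00085), over 21 mice. Without the 2 mice farthest from the median of Dbp, r was 0.92, 0.92 and 0.83. These were the members called of 9, where 4333 of 16881 genes (25.7%) were, and the 3 calls stood in each of the 21 fits that left out 1 mouse. Of all 16881 genes, Tef was the farthest from 0. Per3 (r = 0.68, FDR 0.0953) and Cry1 (r = -0.61, FDR 0.084) did not pass. Cry1, whose protein closes the loop late, was the one member with a negative r to all 4 of these genes, from -0.60 with Tef to -0.69 with Nr1d2. The second group was Per2, Per3 and Ciart, with r of 0.87 between Per2 and Per3, 0.84 between Per3 and Ciart and 0.82 between Per2 and Ciart, given as a description of 3 among 45 pairs. Without the 2 farthest mice these were 0.74, 0.72 and 0.70. Between the 2 groups r ran from 0.37 (Per2 with Nr1d2) to 0.72 (Per3 with Tef). The groups were read off these same values, and their separation was not tested.

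Arntl, whose transcript stands opposite to Dbp in the loop, had r = 0.14 with it (permutation p = 0.626, FDR 0.739, rho = 0.19, p = 0.497), and 0.08 without the 2 farthest mice. Its values with the other members ran from -0.41 (Ciart) to 0.29 (Nr1d2), none had an unadjusted p under 0.05, and 0% of all genes passed (11% had an unadjusted p under 0.05). Without PWK/PhJ mouse 6 the r of Arntl with Ciart was 0.10, with Per3 0.21 and with Per2 0.09, and without WSB/EiJ mouse 5 that with Dbp was -0.04. Read in control limbs alone, 7 of 9 members passed with Dbp, where 30% of genes did. Read in immobilized limbs alone 0 of 9 passed, where 0% of genes did, with Nr1d1, Tef and Nr1d2 at FDR of 0.0528, 0.0559 and 0.0653. Tef, Nr1d1 and Nr1d2 had r of 0.96, 0.95 and 0.90 in control limbs and 0.86, 0.90 and 0.78 in immobilized limbs, while Per2 had 0.78 and 0.03 and Per3 0.88 and 0.27. The difference between limbs in these correlations was not tested.

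**Figure D4:**
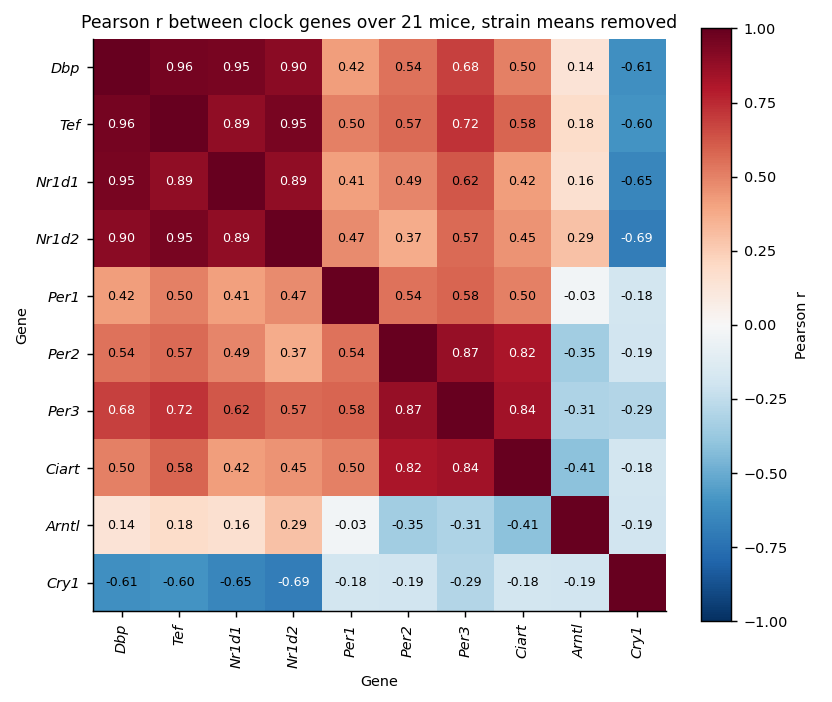
Pearson r between clock genes over 21 mice on the mean log2 CPM of the limbs, strain means removed, coloured from -1 to 1. Dbp, Tef, Nr1d1 and Nr1d2 form a block at 0.89 to 0.96, Per2, Per3 and Ciart a block at 0.82 to 0.87, and Arntl lies between -0.41 and 0.29 with all others.

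Markers of some cell types moved with Dbp across the same 21 mice, as did 25.7% of single genes at an FDR of 0.05. The mean of 6 neutrophil markers, all 6 measured and none at 0 in any library (8.33 to 13.41 over libraries on the log2 scale), had r = -0.77 with Dbp (permutation p = 9e-05, adjusted over 20 relations 0.0018, rho = -0.81, p = 0.00048). The mean of 4 osteocyte markers, all 4 measured and none at 0 (3.76 to 10.48), had r = 0.85 (p = 0.00117, adjusted 0.0117, rho = 0.75, p = 0.00251), 3 endothelial markers had r = 0.72 (adjusted 0.0486), and 6 osteoblast markers had r = 0.50 (adjusted 0.0468). Without the 2 farthest mice these were -0.70, 0.72, 0.76 and 0.52. The 3 adipocyte markers had r = 0.77 but did not pass (adjusted 0.0846). The muscle mean had r = 0.15 (adjusted 0.761) within strains. B cell and erythroid markers did not pass either, with r of -0.01 (adjusted 0.969) and -0.27 (adjusted 0.151). No list passed with Arntl. With the neutrophil mean as a covariate, r with Dbp was 0.91 for Tef, 0.89 for Nr1d1 and 0.73 for Nr1d2, with FDR of 0.368 to 0.431 and 0% of all genes called (unadjusted permutation p 0.00023, 0.00032 and 0.0027). The r of Cry1 with Dbp moved from -0.61 to -0.17, and the limb-to-limb r of Dbp from 0.32 to -0.15, while that of Arntl was 0.46. The part of osteocytes, osteoblasts, adipocytes and endothelium in these correlations was not tested.

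**Figure D5:**
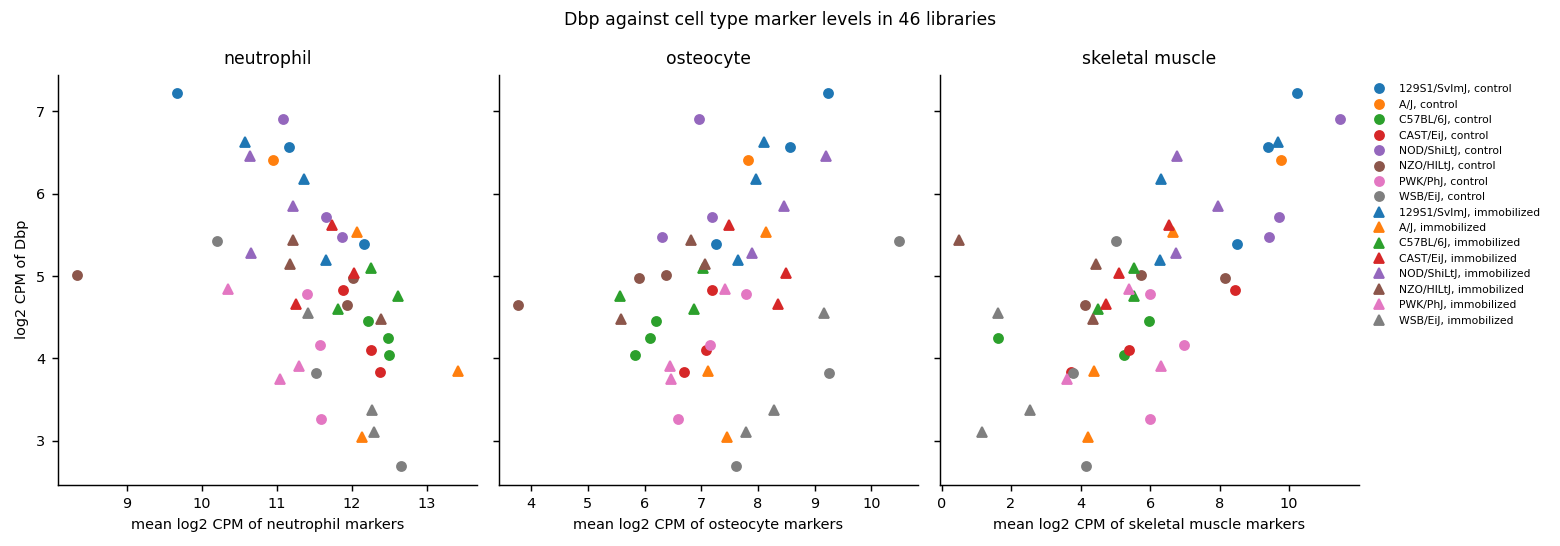
Log2 CPM of Dbp against the mean log2 CPM of neutrophil, osteocyte and skeletal muscle markers in 46 libraries, circles for control and triangles for immobilized limbs, coloured by strain. Within strains over 21 mice the r was -0.77, 0.85 and 0.15, and the 129S1/SvImJ, A/J and NOD/ShiLtJ control limbs lie at 8.51 to 11.45 on the muscle axis. Their Dbp was at 41.9 to 149 CPM. Immobilized limbs of these strains were at 6.29 to 9.68 (129S1/SvImJ), 4.22 to 6.66 (A/J) and 6.74 to 7.94 (NOD/ShiLtJ) on that axis. Their Dbp was at 36.6 to 98.9, 8.24 to 46.2 and 39 to 87.6 CPM, in that order. The part of muscle was not tested.

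Among 18 other genes of the clock and its output, 17 could be tested. For casting 2 of 17 were called, a count close to the share over all genes (7.43%), and both were lower in the immobilized limb. These were Usp2, a deubiquitinase gene under clock control (-0.73 ± 0.21, SE, 22 mice, FDR 0.0431), and Wee1, a cell cycle kinase gene with E-boxes (-0.30 ± 0.08, FDR 0.0289). The median effect of the 17 was -0.05, against 0.0095 over all genes. In CAST/EiJ, where 13.9% of all genes were called, Wee1 fell from 43 ± 4.65 CPM (SD, n = 3) to 22.4 ± 1.88 (-0.94 ± 0.19, FDR 0.00459). Nfil3, the D-box repressor, fell there too (-0.60 ± 0.17, FDR 0.0293), and Npas2, which can stand in for CLOCK beside BMAL1, rose with Arntl (1.27 ± 0.41, FDR 0.0458). Nfil3 rose in the single A/J pair (1.18 ± 0.31, FDR 0.0418), and Usp2 fell in NOD/ShiLtJ (-1.96 ± 0.54, FDR 0.0336), where 8.33% of genes were called. The NOD/ShiLtJ muscle marker mean was 9.42 to 11.45 in control and 6.74 to 7.94 in immobilized limbs, and the control groups with the highest muscle means, NOD/ShiLtJ, A/J and 129S1/SvImJ, also had the highest Usp2, at 43.7, 27.1 and 24.4 CPM. The part of muscle in the Usp2 differences was not tested. Strain differences passed for 7 of 17 in control limbs, where 40.6% of all genes did, among them Npas2, Usp2, Hlf and Bhlhe41. In immobilized limbs 10 of 17 passed, where 50.3% of all genes did. How the calls of these other genes fared with mice left out is not reported here.

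The gene most like Dbp that is no member, among 15215 genes with a mean of at least 1 CPM, was Bhlhe41, the clock repressor DEC2 (r = 0.96, permutation p = 7e-05, FDR 0.0049, rho = 0.92, p = 0.00014, 21 mice). Its r was 0.96 without the 2 farthest mice. Next came Hivep3 (0.95), Aplp2 (0.93), Tns1 (0.93), and Mapk12, Gper1, Fam20a and Bbs1 (0.92 each). Those most like Arntl were Plpp2 (0.87), Gm1673 (0.82), Atf3 (0.81), Lhfpl4, Tpgs1 and Traf1 (0.79 each) and Il13ra1 and Igsf11 (0.78 each), of which none passed (FDR 0.225 to 0.444).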

How the data were processed

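The deposited values are raw read counts per gene, whole numbers that the authors had not normalized. Per the labels, the libraries were stranded poly(A) libraries from column-purified RNA. Named in the submitters' processing notes are mm10, featureCounts and DESeq2. The aligner, annotation and counting strand: not given in the sources used here. As mm10 is the C57BL/6J genome, alignment could lose reads in other strains. Of 32544 rows, 7355 had no count and 27 had a date for a name.

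From these counts, edgeR 4.0.16 (R 4.3.3, TMM, filterByExpr, robust quasi-likelihood F tests, Benjamini-Hochberg FDR of 0.05 over all genes) fitted 44 libraries of 22 mice with mouse as a block and the limb effect of each strain (14 residual degrees of freedom), and 22 control and 24 immobilized libraries by strain. The series design gives both limbs of each animal, which is where the pairing comes from. Limb deviations of the same mouse had a median r of 0.09 over 21 mice (-0.26 to 0.55, over 0.1 in 10). Correlations used log2 CPM (prior count of 2) in 21 mice of the strains other than A/J, with 100000 2-sided permutations within strains (SciPy 1.17.1, smallest p 1e-05). With strain means kept, the A/J mouse was added (22 mice) and permutations ran across strains. Scripts were tested on simulated data.

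The members and gene lists were chosen with earlier results of these data known. Genes named are the 10 members, genes of 2 lists (clock, glucocorticoid) that passed a test, and the 8 with the highest r to Dbp and to Arntl. Alternatives were all 48 libraries, RLE scaling, no filter, DESeq2 1.42.0, a muscle covariate, no mouse block, a prior count of 0.5, strain means kept, single limbs and each mouse left out. A neutrophil covariate was added after seeing the data.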

Additional observations from a re-analysis of the deposited data

How the results depend on the processing

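With DESeq2 the mean limb effect called 1 member in place of 0, differences among strains' limb effects 2 in place of 0, and differences among mice 5 in place of 0. Tests within strains gave 11 calls in place of 3, and strains against the rest 20 in place of 11. Counts for these last tests are of calls of a member in a strain, so they can exceed 10. Tests within strains called 1 without the filter on low counts and 1 with the neutrophil covariate. Without the replicate block the paired tests called 0 for the mean limb effect, 0 within strains and 0 among strains, and over all genes 1 in place of 422 among strains. Over all genes, the mean limb effect called 730 without the filter, 801 with the muscle and 2731 with the neutrophil covariate in place of 1255, and differences among mice 29 with all 48 libraries, 14 without the filter, 643 with the muscle and 17 with the neutrophil covariate and 2390 with DESeq2 in place of 2. Differences among strains' limb effects called 188 with the muscle and 41 with the neutrophil covariate and 2133 with DESeq2, and strain differences in control limbs 4199 with the muscle and 10306 with the neutrophil covariate in place of 6704. The muscle covariate left 2 of 10 members among strains in control limbs, 2 in immobilized limbs and 2 of 11 for strains against the rest, which the neutrophil covariate raised to 22. Correlations with Dbp called 0 members with the neutrophil covariate, 8 with strain means kept, 7 in control limbs and 0 in immobilized limbs in place of 3, and limb-to-limb correlations 8 with strain means kept in place of 0. The cause of these shifts was not tested. RLE scaling and the prior count of 0.5 changed no count of members by over 1.5 times. Keeping all 48 libraries left the counts of members within 1.5 times, and could not be run for strain differences in immobilized limbs, which use none of the near-empty libraries.

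Leaving out each mouse in turn, the mean limb effect called 0 to 1 members and strain differences 8 to 10 in control and 6 to 8 in immobilized limbs. Correlations with Dbp called 3 in each fit. Counted as calls of a member in a strain, tests within strains gave 1 to 7 and strains against the rest 6 to 20. The estimates that changed sign were Per1 (-0.288 to 0.0363), Per3 (-0.198 to 0.029), Nr1d1 (-0.142 to 0.187), Dbp (-0.284 to 0.11), Tef (-0.184 to 0.134) and Ciart (-0.279 to 0.189) for the mean limb effect. For limb-to-limb r they were Per2 (-0.13 to 0.362), Per3 (-0.19 to 0.29) and Ciart (-0.221 to 0.344). For r with Arntl they were Per1 (-0.179 to 0.218), Per2 (-0.613 to 0.0881), Per3 (-0.543 to 0.211), Dbp (-0.0398 to 0.262) and Ciart (-0.541 to 0.102). With the muscle covariate the mean limb effects of Cry1, Nr1d1, Dbp, Tef and Ciart were -0.0313, 0.218, 0.235, 0.188 and 0.258. With the neutrophil covariate, chosen after seeing the data, limb-to-limb r was -0.0564 for Cry1, -0.151 for Dbp and -0.0518 for Tef, and r with Arntl was 0.108 for Cry1, -0.21 for Nr1d1, -0.0917 for Nr1d2, -0.272 for Dbp and -0.27 for Tef. With strain means kept r with Arntl was 0.148 for Cry1, -0.21 for Dbp and -0.0407 for Tef. The r of Per1 was 0.11 with Arntl in control limbs and -0.079 with Dbp in immobilized limbs. The cause was not tested, and no sign change concerned a member that had passed its test. Depth limits Ciart and Arntl most, at 1 to 110 and 26 to 125 counts.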

Other observations

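Genes induced by glucocorticoids, hormones whose blood level follows the time of day, were read beside the clock genes. Of 11 tested, 2 fell with casting on average, where 7.43% of all genes were called: Tsc22d3, the anti-inflammatory factor GILZ (-0.37 ± 0.09, SE, 22 mice, edgeR FDR 0.022), and Zbtb16, a zinc finger factor gene (-0.43 ± 0.12, FDR 0.0406). The median of the 11 was -0.06, against 0.0095 over all genes. Tsc22d3 was at 227 ± 72.1 CPM (SD, n = 3) in NOD/ShiLtJ control limbs and 158 ± 35.8 in immobilized limbs, and at 113 ± 31.4 and 114 ± 49.7 in C57BL/6J. In CAST/EiJ, where 13.9% of all genes were called, Fkbp5, a receptor cochaperone gene, fell (-0.82 ± 0.17, FDR 0.0055). Dusp1, a phosphatase gene, rose there (0.91 ± 0.22, FDR 0.0135), as did Mt2, a metallothionein gene (1.33 ± 0.38, FDR 0.0281). Dusp1 was the 1 gene of the list whose limb effect differed among strains (FDR 0.0461), where 2.5% of all genes did. In control limbs 8 of 11 differed among strains, where 40.6% of genes did. Across 21 mice the mean of the list had r = 0.66 with Dbp (permutation p = 0.00317, adjusted over 20 relations 0.0211, rho = 0.74, p = 0.00298) and r = 0.22 with Arntl (adjusted 0.769).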
